A study of Mus musculus with 28 samples.

Results

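The sodium-potassium ATPase beta subunit genes Atp1b1, Atp1b2 and Atp1b3 were followed across 28 single mouse brain cells whose RNA was sequenced one cell at a time. The 3 genes were selected by symbol, and all 3 were present in the table of exonic counts (23453 genes) and in the table of intronic counts (20422 genes). The sample labels name 8 astrocytes and 12 neurons from primary culture and 8 interneurons from acute slices. The cultured cells carry the genotype C57/BL6 and were picked with a harvest pipette. Their labels mention a male mouse aged 3 months that was fixed by perfusion, whereas the study's methods describe cells dispersed from embryos of both sexes and kept in culture, so the age of these cells is uncertain. The interneurons carry the genotype C57/BL6/N and were drawn into a patch clamp pipette from layers of the prefrontal cortex. No drug or genetic change is given for any cell. The cultured cells and the slice cells were also prepared with different library kits and read on different sequencers, so cell type, source and preparation cannot be told apart. No animal or culture is named for single cells, so cells of one kind may share one.

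Columns are named by codes found in no sample label, so none of the 28 columns was given a cell type. Values are reported for 3 blocks of codes: BRP564 and BRP566 to BRP572 (8 cells), BRP528 to BRP543 (12 cells) and F (8 cells). The block sizes equal the labelled numbers of astrocytes, neurons and interneurons. The blocks were set with these sizes and with marker genes in view, so marker levels by block are no independent evidence of cell type. Because the codes match no label, the cells were treated as 1 pooled set. Values are given as the lowest, median and highest cell, and no test was made between blocks.

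The sodium-potassium ATPase moves sodium out of the cell and potassium into it at the cost of ATP, and it sets the ion gradients that excitability and most secondary transport draw on. The catalytic alpha subunit carries out the transport. The beta subunit is a glycoprotein that crosses the membrane once, and it is needed for the pump to fold, reach the cell surface and bind potassium with its proper affinity. Atp1b1 encodes beta-1, which is abundant in neurons. Atp1b2 encodes beta-2, also known as the adhesion molecule on glia (AMOG), and Atp1b3 encodes the widely expressed beta-3.

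In the GENCODE M21 annotation of GRCm38, Atp1b1 (ENSMUSG00000026576) lies at chr1:164437109-164458355, Atp1b2 (ENSMUSG00000041329) at chr11:69599736-69605942 and Atp1b3 (ENSMUSG00000032412) at chr9:96332655-96364442, all on the minus strand. Their joined exons cover 3.081 kb, 4.085 kb and 2.389 kb, and their introns 18.2 kb, 2.122 kb and 29.4 kb, in the same order. The 60 coding bases in which the 3 genes are most alike are shown because they give the resemblance that counting had to resolve. In each gene they cross the junction of exons 1 and 2, and capitals mark the 35 bases that are identical in all 3 genes. The stretches lie on the minus strand at chr1:164453582-164457784, chr11:69603518-69605284 and chr9:96345858-96364069, with 1 intron inside each.
Atp1b1: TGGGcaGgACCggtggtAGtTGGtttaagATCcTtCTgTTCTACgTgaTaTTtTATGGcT
Atp1b2: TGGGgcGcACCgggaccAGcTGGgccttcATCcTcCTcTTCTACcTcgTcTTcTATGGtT
Atp1b3: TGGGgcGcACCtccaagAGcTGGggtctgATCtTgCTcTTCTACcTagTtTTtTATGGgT
Even here the matches came in short runs. Over the whole coding sequence, aligned bases were identical at 57.0% between Atp1b1 and Atp1b2, 55.3% between Atp1b2 and Atp1b3 and 49.7% between Atp1b1 and Atp1b3. The longest run shared by any pair of their transcripts was 19 bases, between Atp1b1 and Atp1b2. Elsewhere in the genome, the transcript of Gm1848 matched Atp1b3 at 96.4% over 805 bases, and Gm1848 is not listed in the exonic table. The nucleoside diphosphate kinase gene Nme7 on the opposite strand overlaps 575 bases of Atp1b1 exon, and its median level was between 36.4 and 45.6 CPM (exonic counts of a gene per 1000000 exonic counts of the cell) in the 3 blocks. The strand setting of the counts is not given in the sources used here, so reads in that overlap cannot be assigned with certainty.

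Exonic counts per cell ran from 12969692 to 26770944 in the BRP cells and from 838343 to 14831505 in the F cells, and the F cells had counts in fewer genes (2338 to 7218, against 9869 to 12815). All 8 astrocyte markers were detected in every cell of BRP564 to BRP572, where their summed level was 1522 to 6174 CPM. The neuron markers of these cells summed to 299 to 801 CPM. Map2 (median 358 CPM), Stmn2 (194 CPM) and Tubb3 (8.40 CPM) were detected in 8 of 8, whereas Snap25 and Rbfox3 had medians of 0. The oligodendrocyte precursor marker Pdgfra was also detected in 8 of 8, at a median of 18.0 CPM. In BRP528 to BRP543 all 6 neuron markers were detected in every cell, with a summed level of 4737 to 8469. The astrocyte marker Aqp4 was detected in 10 of these 12 cells, at a median of 0.981 and at most 418 CPM. With all 8 astrocyte markers, the 12 cells held 191 to 2463 CPM, and BRP528 (1739 CPM) and BRP529 (2123 CPM) did not stand apart, since BRP538 held the highest sum. Without the glutamate transporter Slc1a2, which was high in this block, BRP528 and BRP529 held 1402 and 1153 CPM and the other 10 held 0.041 to 53.4. Other marker sums were raised in these 2 cells as well. BRP528 held the highest GABAergic (2734 CPM) and oligodendrocyte (610 CPM) sums of the block. BRP529 held its highest oligodendrocyte precursor sum (303 CPM). The neuron markers of the F cells summed to 1608 to 16746 CPM, with a median of 1546 for Snap25 but 0.125 for Rbfox3. In the F cells the GABAergic markers were mixed. Gad1, which makes the transmitter GABA, had a median of 2754 CPM and was detected in 8 of 8, though the lowest cell held 0.739. The median of Slc32a1 was 531 CPM. Those of Gad2 (10.2 CPM, against 36.3 in BRP528 to BRP543), Dlx1 (0.998) and Dlx2 (0) were low. F7 held 4352 CPM of astrocyte markers, or 2.30 CPM without Slc1a2. The microglial receptor gene Csf1r reached 2093 CPM in F16. The endothelial marker Cldn5 was at 0 in all 28 cells. F11 and F12 were the most alike pair of the 378 by chi-square per degree of freedom (17.6). The lowest of the other 377 pairs was 219, and the next F pair, F2 and F16, had 1261. By Spearman's rho F11 and F12 (0.55) were less alike than F1 and F11 (0.58). They differed by more than sampling noise and were kept as 2 cells, but whether they share material was not tested.

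Atp1b1 was the beta subunit gene with the highest level per kb of exon in most cells, and its level separated the BRP blocks. On the CPM scale, BRP564 to BRP572 held 468, 723 and 987 as the lowest, median and highest values. BRP528 to BRP543 held 4572, 6386 and 11201. The ranges of these blocks did not overlap, and the ratio of the medians was 8.83. Within each block the cells were close, since the highest cell exceeded the lowest by 2.11-fold in BRP564 to BRP572 and by 2.45-fold in BRP528 to BRP543.

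In the F cells Atp1b1 was present in 8 of 8 but spread over a 65.5-fold range, from 385 to 25209 CPM with a median of 1990. F1 held the highest Atp1b1 level of all 28 cells, followed among F cells by F6 (9126 CPM), F2 (8509 CPM) and F24 (2878 CPM). The other 4 lay between 385 and 1102 CPM, inside or near the range of BRP564 to BRP572. The F range therefore overlapped that of both BRP blocks. The median of BRP528 to BRP543 was 3.21 times that of F with scaling to the exonic total, but with DESeq2 size factors the direction turned, to a log2 difference of -1.73. F1, F6 and F2 were also among the 4 deepest F cells, and the part of depth in this spread was not tested.

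Atp1b2 had the lowest level per kb of exon of the 3 in all 20 BRP cells. BRP564 to BRP572 held 48.0, 85.7 and 182 CPM as lowest, median and highest, with 623 to 3091 counts behind each value. BRP528 to BRP543 held 0.299, 13.9 and 75.7 CPM, a 253-fold range. The medians differed by 6.14-fold, but the ranges overlapped. The overlap came from 1 cell, BRP529 at 75.7 CPM, which was one of the 2 cells with raised astrocyte markers other than Slc1a2. The other, BRP528, held 31.6 CPM. Without both, a choice made after the data were seen, the remaining 10 cells held 0.299, 8.88 and 46.9 CPM. These values lay below every cell of BRP564 to BRP572, but only just. BRP535 at 46.9 CPM (95% counting interval 44.1 to 49.9) and BRP569 at 48.0 CPM (44.3 to 52.0) cannot be told apart by counting error. The share of all genes that separate under this choice was not computed. The highest of those 10, BRP535 at 46.9 CPM, had an astrocyte marker sum of 290 CPM, or 1.18 CPM without Slc1a2. The next, BRP538 at 34.3 CPM, had sums of 2463 and 3.54 CPM. The lowest value, 0.299 CPM in BRP537, rested on 8 counts, with an exact 95% Poisson interval of 0.129 to 0.589 CPM that covers counting error only.

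In the F cells Atp1b2 was either clearly present or not seen. F6 held 118 CPM and F1 held 73.6 CPM, whereas F2 had 1 count and the remaining 5 cells had 0. In those 5 cells a count of 0 allows a level of up to 0.345 CPM in F7, 0.683 in F11, 1.11 in F12, 1.42 in F24 and 3.58 in F16. F1 and F6 thus lay in the range of BRP564 to BRP572. F6 had a summed astrocyte marker level without Slc1a2 of 0.332 CPM, and F1 of 205 CPM. F1 and F6 were also the deepest F cells, with 14831505 and 12043599 exonic counts.

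Atp1b3 was present in all 20 BRP cells and nearly missing from most F cells. BRP564 to BRP572 held 308, 499 and 730 CPM as lowest, median and highest. BRP528 to BRP543 held 59.3, 174 and 368 CPM. The medians differed by 2.87-fold, and the ranges overlapped because BRP541 (368 CPM) reached above the 308 CPM of BRP570. The F cells were low, apart from 1 cell. The 7 cells other than F24 held 0, 0.664 and 11.6 CPM as lowest, median and highest, with 2 of them at 0. F24 held 5292 CPM from 11200 counts, above all 20 BRP cells.

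**Figure D1:**
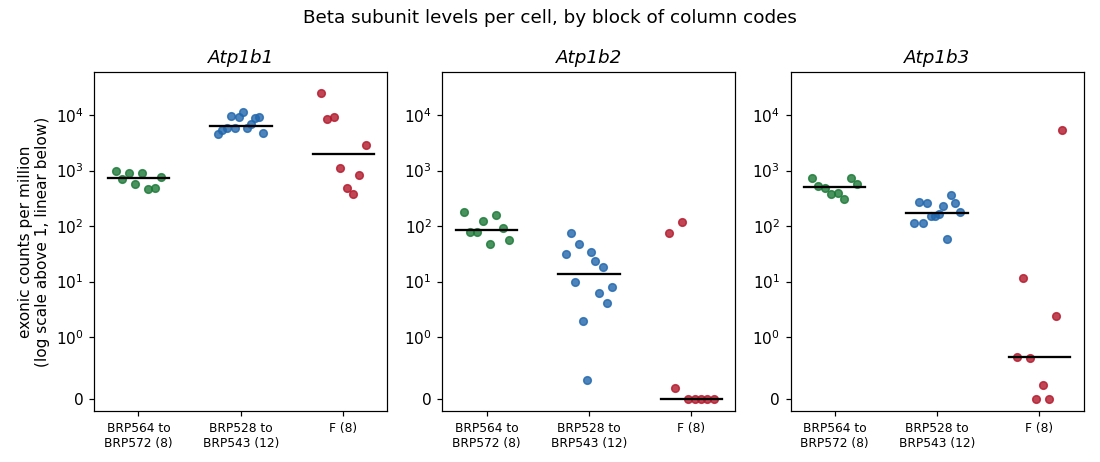
Level in CPM of each beta subunit gene (vertical axis, log scale above 1 and linear below) in every cell, by block of column codes. Each point is 1 cell and the bar is the block median. Atp1b1 separates the BRP blocks (468 to 987 against 4572 to 11201), Atp1b2 is at 0 in 5 F cells, and F24 stands alone at 5292 for Atp1b3.

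Large differences between the blocks were common, which sets the scale for these values. Among 8572 genes with a mean of at least 10 CPM, 57.8% had medians over 2-fold apart between BRP564 to BRP572 and BRP528 to BRP543, as did all 3 beta subunit genes. Ranges that did not overlap between these blocks were rarer, at 9.43% of genes, and Atp1b1 was the 1 of the 3 that met this. Against the F cells, 94.3% of genes were over 2-fold apart for BRP564 to BRP572 and 93.6% for BRP528 to BRP543, so the fact that all 3 members were over 2-fold apart there too is near the background. The ranges of 29.3% and 15% of genes, respectively, did not overlap with those of F, and none of the 3 members was among them. Other scalings multiply the CPM of all genes of a cell by 1 factor. The block medians of this factor differed, on the log2 scale, by -0.17, -1.49 and -1.31 with TMM factors. With DESeq2 size factors they differed by 0.82, -1.96 and -2.78. The order is BRP564 to BRP572 minus BRP528 to BRP543, BRP564 to BRP572 minus F, and BRP528 to BRP543 minus F. The log2 difference for Atp1b1 between the BRP blocks (BRP564 to BRP572 minus BRP528 to BRP543) was -3.14 with exonic totals and -2.37 with DESeq2 size factors, and for Atp1b3 it was 1.52 and 2.22.

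The make-up of the beta subunit transcripts within a cell does not depend on the scaling between cells. For this the level per kb of exon was taken as a share of the 3 genes' sum. In BRP564 to BRP572 the median shares were 49.0% for Atp1b1, 4.43% for Atp1b2 and 44.0% for Atp1b3, so that beta-1 and beta-3 transcripts were present at similar levels. The share of Atp1b1 ran from 32.5% to 62.1%, that of Atp1b3 from 35.3% to 62.8% and that of Atp1b2 from 2.53% to 12.0%. In BRP528 to BRP543 Atp1b1 made up 93.0% to 98.8% (median 96.4%), Atp1b3 1.10% to 6.01% and Atp1b2 at most 0.974%. The 3 shares of a cell sum to 100%, so they are not independent, and the higher Atp1b1 level in this block by itself lowers the shares of Atp1b2 and Atp1b3. The CPM ranges of those 2 genes overlapped between the BRP blocks. In F the median share of Atp1b1 was 99.8%, with F24 as the exception at 29.7% Atp1b1 and 70.3% Atp1b3.

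Atp1b1 had the highest level per kb of the 3 in 26 of 28 cells. The exceptions were BRP571 and F24, where Atp1b3 led. Ranked per kb among the 23107 genes with a known exon length, Atp1b1 stood between place 3 and place 15 in BRP528 to BRP543, and between 166 and 400 in BRP564 to BRP572. It was the gene with the highest level per kb in F1. Atp1b3 stood between place 176 and place 461 in BRP564 to BRP572, close to the places of Atp1b1 there, and between 339 and 1971 in BRP528 to BRP543.

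**Figure D2:**
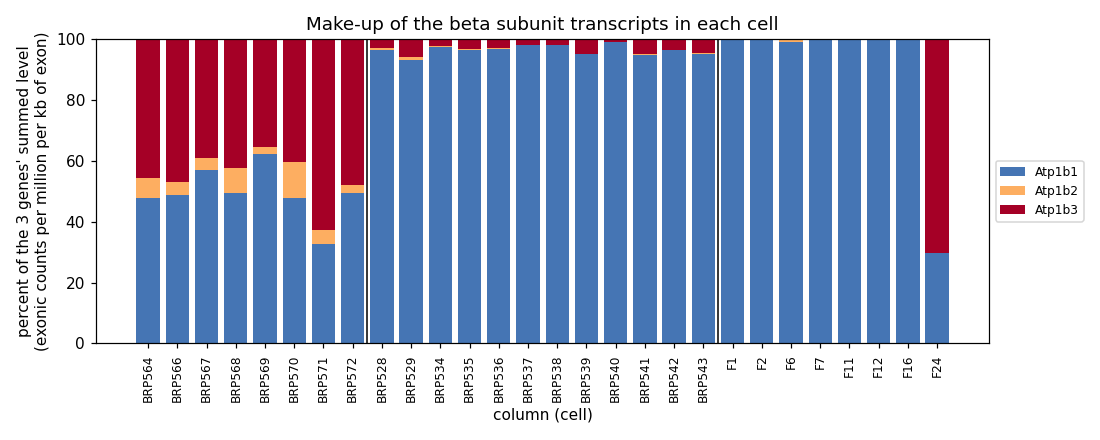
Share of each beta subunit gene in the 3 genes' summed level per kb of exon (vertical axis, percent) in every cell (horizontal axis, column code). Black lines divide the blocks. Atp1b3 holds 35.3% to 62.8% in the BRP cells on the left, at most 6.01% in the middle block, and 70.3% in F24.

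How the beta subunits varied together differed between the sets of cells. Given as descriptions over cells that share their block and preparation, Spearman's rho over log2(CPM + 1) within BRP564 to BRP572 (n = 8) was -0.24 for Atp1b1 with Atp1b2, 0.45 for Atp1b1 with Atp1b3 and 0.07 for Atp1b2 with Atp1b3. Within BRP528 to BRP543 (n = 12) the same values were -0.10, 0.22 and 0.35. Over all 20 BRP cells rho was -0.74, -0.62 and 0.77, which includes the step between the 2 blocks. Within the F cells (n = 8) Atp1b1 and Atp1b2 had a rho of 0.85, with 5 of the 8 Atp1b2 values at 0. There rho was 0.47 for Atp1b1 with Atp1b3 and 0.19 for Atp1b2 with Atp1b3. Over all 28 cells the 3 values were -0.11, -0.23 and 0.54, which also include the steps between blocks.

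Atp1b2 followed the astrocyte markers inside 1 block. In BRP564 to BRP572 its rho with the summed marker level was 0.93 (n = 8), also without Slc1a2, while Atp1b3 had 0.10 and Atp1b1 had -0.19. The 0.93 was the highest of many rho values computed within blocks. The share of all genes with such a rho in these cells was not computed. BRP564, highest in Atp1b2 at 182 CPM, had a marker sum without Slc1a2 of 5894 CPM, and BRP569, lowest at 48.0 CPM, had the lowest sum, 1424 CPM. In BRP528 to BRP543 the rho of Atp1b2 with the marker sum was 0.18, and 0.04 without Slc1a2 (n = 12). In F it was 0.11, and 0.19 without Slc1a2 (n = 8), with 5 Atp1b2 values at 0. Atp1b2 was lower in cells with a higher intronic share of all counts, with a rho of -0.79 over the 28 cells, -0.52 in BRP564 to BRP572, -0.67 in BRP528 to BRP543 and -0.68 in F. The part of RNA quality or nuclear RNA in this was not tested.

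**Figure D3:**
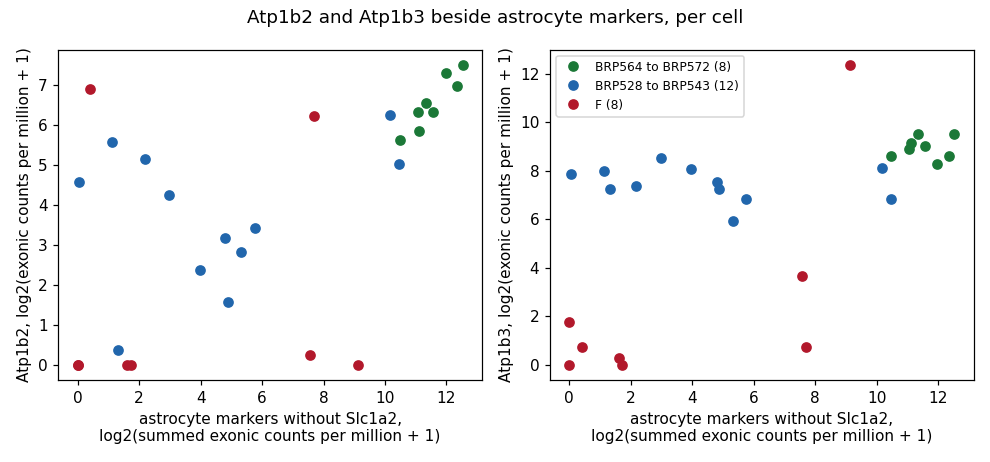
Atp1b2 (left) and Atp1b3 (right) against the summed level of 7 astrocyte markers, both as log2(CPM + 1), 1 point per cell and coloured by block. In BRP564 to BRP572 Atp1b2 is higher where the markers are higher (rho 0.93), which is not seen for Atp1b3 (0.10), and F6 has high Atp1b2 (118 CPM) at a marker sum of 0.332 CPM.

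Introns gave a second readout of the same genes, and nearly all beta subunit counts were exonic. Over the 28 cells Atp1b1 had 3089 intronic counts beside 2513929 exonic ones (0.123% of its counts), Atp1b2 had 1 beside 22179 and Atp1b3 had 4443 beside 130586 (3.29%). For all genes together the intronic share was 19.6%. In the F cells, where 41.1% of all counts were intronic, Atp1b1 had only 3 intronic counts beside 550420 exonic counts.

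Single cells carried most of the intronic counts. BRP536 held 1561 of those of Atp1b1 (50.5%), and F2 held 3647 of those of Atp1b3 (82.1%). In F2 these stood beside only 64 exonic counts of Atp1b3, whereas F24, with 11200 exonic counts, had 0 intronic ones. The single intronic count of Atp1b2 was in BRP571. Its introns are short (2.122 kb). Other genes nearby on chromosome 11 varied widely in this. Efnb3 had 3 intronic counts beside 25683 exonic ones and Mpdu1 had 16 beside 21054, whereas Eif4a1 had 1687 beside 41486 and Senp3 had 6371 beside 7292.

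**Figure D4:**
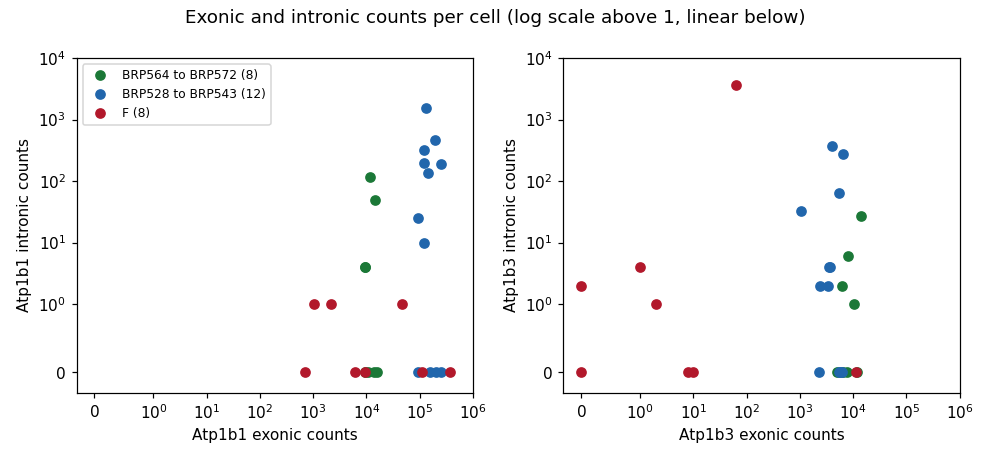
Intronic counts (vertical axis) against exonic counts (horizontal axis) of Atp1b1 and Atp1b3, 1 point per cell and coloured by block, both axes on a log scale above 1 and linear below. The F2 point (64 exonic, 3647 intronic) stands apart for Atp1b3, and most cells have few or no intronic counts.

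Of 27 genes taken as partners of the pump, all in the exonic table, 14 had a mean of at least 10 CPM. These comprise regulators that bind the pump and transporters that use its gradients. Between BRP564 to BRP572 and BRP528 to BRP543, 6 of the 14 were over 2-fold higher and 7 over 2-fold lower in the former (57.8% of all genes were over 2-fold apart in either direction), and the ranges of 4 did not overlap (9.43% of all genes). Atp4b, the beta chain of the gastric proton pump, and Atp1b4, a further beta-type chain, were each at 0 in 9 of the 12 cells of BRP528 to BRP543 and in all cells of the other blocks.

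Among the regulators, Fxyd6 was the FXYD gene with the highest medians in the BRP blocks, at 98.0 CPM in BRP564 to BRP572 and 102 CPM in BRP528 to BRP543. Fxyd1, which encodes phospholemman, was detected in 8 of 8 cells of BRP564 to BRP572 at a median of 4.32 CPM, and in 3 of 12 and 0 of 8 cells of the other blocks. Its highest cell was in BRP528 to BRP543, at 34.4 CPM against at most 23.1 CPM in BRP564 to BRP572, and its mean was under 10 CPM. Nkain2, one of the small membrane proteins that interact with the pump, had medians of 6.40, 62.3 and 0.125 CPM in BRP564 to BRP572, BRP528 to BRP543 and F. The astrocyte membrane proteins Hepacam and Mlc1 had non-overlapping ranges between the BRP blocks: Mlc1 ran from 363 to 700 CPM in BRP564 to BRP572, and from 0 to 59.3 CPM in BRP528 to BRP543.

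Among the transporters, Kcnj10, the inward rectifier potassium channel of astrocytes, was 311 to 735 CPM in BRP564 to BRP572 and 0 to 305 CPM in BRP528 to BRP543. The sodium bicarbonate cotransporter Slc4a4 was 96.1 to 267 CPM and 0 to 109 CPM in the same blocks. The potassium-chloride cotransporter Slc12a5 ran the other way, at 0 to 24.9 CPM and 227 to 919 CPM, and its median in F was 639 CPM. The sodium-calcium exchanger Slc8a1 was likewise lower in BRP564 to BRP572, with a median of 97.2 CPM against 583 CPM. The glutamate transporters were split, since the median of Slc1a3 was 522 CPM in BRP564 to BRP572 and 9.85 CPM in BRP528 to BRP543, whereas that of Slc1a2 was 192 and 804 CPM. Over the 28 cells Mlc1 had the highest rho with Atp1b2 (0.73), Kcnj10 with Atp1b3 (0.73) and Slc8a2 with Atp1b1 (0.62) among the 14. These values include the steps between blocks, and no rho within a block was computed for the partners. For comparison, the 5 genes most like each member among all 8572 reached 0.83 to 0.92.

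**Figure D5:**
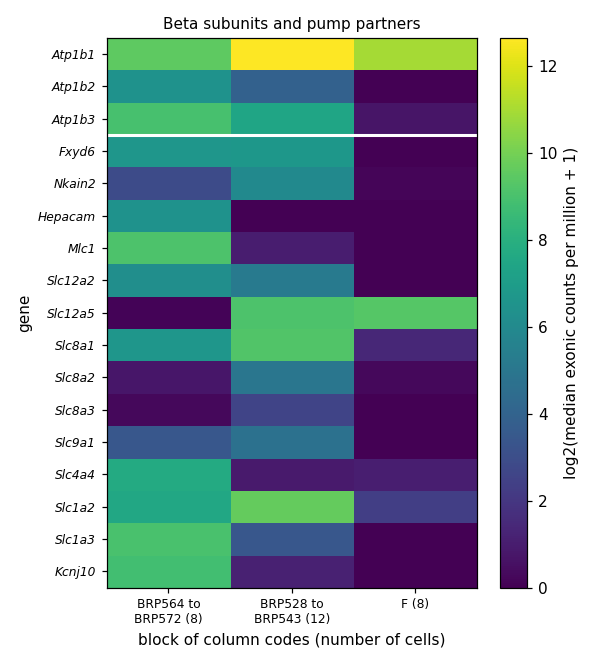
Median level, as log2(median CPM + 1), of the 3 beta subunit genes (top, above the white line) and of the 14 partner genes with a mean of at least 10 CPM, by block. Mlc1 (556 CPM) and Kcnj10 (446 CPM) have their highest medians in BRP564 to BRP572 beside Atp1b2 and Atp1b3. Slc1a2 (804 CPM), which is also on the astrocyte marker list, and Slc8a1 (583 CPM) have theirs in BRP528 to BRP543 beside Atp1b1.

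The genes most like each member over the 28 cells, by Spearman's rho among 8572 genes, were different for each. For Atp1b1 they were Clcn3 (0.86), a chloride-proton exchanger of vesicles, Sv2a (0.85), a synaptic vesicle protein, Atp6ap2 (0.85), a part of the vacuolar proton pump, Pianp (0.84) and Hecw1 (0.83). For Atp1b2 they were Anapc11 (0.87), Ccpg1 (0.87), Gm13826 (0.86), Txndc12 (0.86) and Hcfc1r1 (0.86), and for Atp1b3 they were Tmem9b (0.92), Bmpr1a (0.91), Tmem59 (0.90), Egln1 (0.89) and Ryk (0.88). Over the 20 BRP cells alone, 0 of the 5 genes stayed among the 5 most alike for any of the 3 members, although the named genes kept rho values of 0.68 to 0.88 there. No ranking was made within a block.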

How the data were processed

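RNA of 28 single cells was measured. For exons and for introns, the authors deposited a table of raw counts, not normalized. Per the labels, the submitters' processing notes name bcl2fastq 2.17, STAR 2.4.0 and the build mm10. The counting tool, annotation and strand setting are not given in the sources used here. All 28 columns of each table were used, and 0 could be matched to a sample.

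Exonic counts were scaled to 1000000 exonic counts in each cell (CPM), and to compare genes the CPM was divided by kb of joined exon from GENCODE M21, with a length for 23107 of 23453 genes (98.5%). Coding sequences were aligned with MAFFT 7.526. For each member, 1 whole transcript was searched against all annotated transcripts with BLAST 2.17.0 (at least 90% identity over 100 bases). Counting intervals are exact 95% Poisson intervals, and the limit for a count of 0 is 3 counts. These cover counting error only. No test was made, since the columns carry no group. Differences were set beside the share of 8572 genes (mean of at least 10 CPM) with medians over 2-fold apart or with ranges that did not overlap. Spearman's rho was computed on log2(CPM + 1). Named genes were the members, the partner genes with the highest levels in each block, and the 5 genes with the highest rho with each member. The partners Fxyd1, Nkain2, Hepacam, Slc8a2, Atp4b and Atp1b4 fall outside this rule and were named after their values were seen. Other genes are given values where a marker or a neighbour bears on a member. The members, lists and blocks were chosen with earlier results of these data known. On simulated data, genes given a fold change well above the 2-fold limit were recovered. The simulated cells varied far less than the real ones. This checks the code, and it does not show how well smaller or noisier differences would be found. TMM factors (edgeR 4.0.16) and DESeq2 1.42.0 size factors in R 4.3.3 were tried as alternative scalings, with other filters, lengths and pseudocounts and with each cell left out. Python 3.11.15, numpy 2.4.6, pandas 2.3.3 and scipy 1.17.1 were used.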

Additional observations from a re-analysis of the deposited data

Results flagged for a closer look

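2 values among the F cells lay further from their neighbours than Dixon's limit at the 95% level for 8 values. Chance passes this limit in about 1 of 20 groups when values are normally distributed. It was applied to CPM without logs, so a skewed spread alone can pass it. Every member was screened at both ends in both blocks of 8 cells, which gives further room for chance. For Atp1b1, F1 held 25209 CPM, with a gap to the next cell of 0.648 of the range. For Atp1b3, F24 held 5292 CPM, with a gap of 0.998 of the range. F1 was also the deepest F cell and had the lowest intronic share of the F cells (5.31%), while F24 had the highest (63.0%) at 2116359 exonic counts. The cause was not tested in either.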

How the results depend on the processing

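Of 381 recomputed values, 361 stayed within the limit set for them, 19 moved and 1 turned. The limit was the spread between cells, a leave-one-out error for Spearman's correlation, or 1.5 times the main value for shares and counts of genes. Leaving out 1 cell gave 168 log2 differences and 84 make-up shares, and such medians move little. Another pseudocount gave 3 correlations that cannot change. A wide spread can also hide changes. With intronic counts added, Atp1b1 in BRP564 to BRP572 minus F went from -1.46 to -0.24 (spread 1.60). With DESeq2 size factors the log2 difference of medians for Atp1b1 became -2.37 (main -3.14) between BRP564 to BRP572 and BRP528 to BRP543, -4.10 (main -1.46) between BRP564 to BRP572 and F, and turned to -1.73 (main 1.68) between BRP528 to BRP543 and F. TMM factors gave -3.28 and 0.11 for the last 2. For Atp1b3, DESeq2 size factors gave 2.22 (main 1.52) between the BRP blocks. Spearman's correlation over the 28 cells for Atp1b1 with Atp1b2 was -0.11, and -0.43 with DESeq2 size factors. For Atp1b1 with Atp1b3 it was -0.23, and -0.53 with TMM factors or -0.52 with DESeq2 size factors. The cause was not tested.

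Without a filter on low values the background shares became 4.8% of genes with ranges that did not overlap between the BRP blocks, 62.2% and 16.4% for BRP564 to BRP572 against F (medians over 2-fold apart and ranges that did not overlap), and 56.9% and 7.24% for BRP528 to BRP543 against F. The last share was 8.46% with DESeq2 size factors. Without the filter, genes at or near 0 in most cells enter the count.

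Leaving out each cell in turn kept every direction. The log2 difference for Atp1b1 ran from -1.99 to -0.61 for BRP564 to BRP572 minus F and from 1.15 to 2.53 for BRP528 to BRP543 minus F, where leaving out F1, F2, F6 or F24 gave 2.53 and any other F cell 1.15. The other leave-one-out ranges were narrower than 1 log2 unit. The make-up shares moved by no more than their spread under any alternative. With TMM factors, 1 and 2 of the 5 genes most like Atp1b1 and Atp1b2 stayed. No paired analysis was possible because the columns carry no replicate number and no test was made. Depth limits Atp1b2 in the F cells, where a count of 0 allows 0.345 to 3.58 CPM. The choice of leaving out BRP528 and BRP529, F12 or F24 was made after seeing the data.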
